A study of Caenorhabditis elegans with 4 samples.

Results

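The cytochrome P450 genes of Caenorhabditis elegans were examined in RNA from whole worms kept on 2 kinds of bacterial food. Members were all genes whose name in the count tables begins with cyp- and a number, which gave 81 of the 46904 genes listed. All worms were hermaphrodites of the wild-type strain Bristol N2. By title, 2 libraries came from worms fed OP50, the Escherichia coli strain usually given to laboratory worms, and are called the OP50 pair here (OPd4). The 2 others came from worms fed OP50 with Lactiplantibacillus sp. MH-1, a lactic acid bacterium, and are called the MH-1 pair (OPMHd4). About 200 worms were collected per group. The texts on age disagree: one has 4-day-old worms on the bacteria for 1 day, and another has 1-day-old worms kept on them for 2 days. Both texts name MH-1 without OP50, whereas the treatment label of the samples gives the mixture. In all 4 tables the count column is headed with the food that the title does not give. The titles were followed, and each direction below turns around if the headers are right. No label states separate cultures for the replicates, so p-values here cover the spread between libraries, which may be technical only.

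Cytochrome P450 enzymes carry a heme group and use oxygen and electrons from NADPH to oxidize lipids, steroids and foreign compounds. In the endoplasmic reticulum the electrons come through NADPH-P450 reductase, encoded in the worm by emb-8, and in part through cytochrome b5. Nematodes have expanded the clans to which the vertebrate CYP2, CYP3 and CYP4 enzymes also belong, and several worm members are known to be induced in the intestine by drugs and pollutants. Others have tasks in the animal's own metabolism: they make signalling lipids from polyunsaturated fatty acids, the steroid hormone dafachronic acid, or lipids of the eggshell.

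By family name, 45 of the 81 genes belong to the CYP2 clan, 21 to the CYP3 clan and 13 to the CYP4 clan. cyp-44A1 is the single member of the mitochondrial clan, and cyp-23A1 was given no clan. Gene ontology terms in the tables match the family name: 75 of the 81 genes carry heme binding and 70 carry both heme binding and monooxygenase activity. Outside the family name, those terms occurred together in 1 gene, daf-9, the P450 that makes dafachronic acid and that has a name of its own. Ensembl release 115 classes 75 members as protein-coding and 6 as pseudogenes (cyp-13A9, cyp-25A5, cyp-29A1, cyp-31A1, cyp-34A3 and cyp-35D2). Chromosome V holds 44 of the genes. When neighbours at most 50000 bases apart were joined, 50 genes fell into 10 runs. The largest run has 13 genes of the cyp-34A, cyp-35A and cyp-35B subfamilies (chromosome V, 3936326 to 4033446, coordinates of the tables, ce11). Near-identical neighbours can take each other's reads in such runs, so single genes there are uncertain where copies are close. Inside and outside these runs, 15 members overlap a gene on the opposite strand, and whether the counting used strand is not stated.

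No P450 gene passed the test for a difference between the foods. Of the 81 genes, 54 had enough reads to be tested, and 0 of them reached an adjusted p of 0.05 in edgeR's quasi-likelihood test (Benjamini-Hochberg over 12640 genes), against 2.15% of all genes tested. DESeq2 called 0 of the 50 members to which it gave an adjusted p and limma-voom 0 of 54, against 3.75% and 1.28% of all genes. At an unadjusted p under 0.05 the quasi-likelihood test picked 9 members (16.7%, against 14.1% of all genes). Of these, 2 of the 54 were higher in the MH-1 pair, against 9.46% of all genes, and 7 were lower, against 4.61%. DESeq2 picked 5 members at that level and limma-voom 10, where the background was 10.6% and 13.6%. The share of members picked was thus near that of all genes. Of the 7 lower ones, 3 (cyp-13A4, cyp-13A7 and cyp-33D3) had enough reads to be tested only through the OP50 pair, so they could only come out lower, and nothing is read from the split by direction.

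The spread of the libraries was set beside that of all genes in the same way. Both MH-1 libraries lay above both OP50 libraries in 5 tested members (9.26%, all genes 24.4%) and below them in 16 (29.6%, all genes 21.6%), and in the other 33 the groups overlapped. The median log2 fold change of the tested members was -0.05, and that of all tested genes was 0.00. Values were negative in 31 of the 54 members (57.4%) and in 49.6% of all tested genes. A log2 fold change of at least 1 in size was seen in 5 members (9.26%, all genes 6.76%). All 5 were negative, a sign that the filter on low counts fixed for cyp-13A4, cyp-13A7 and cyp-33D3. These 3 genes are also among the 16 and the 31 above.

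The reads of the whole family summed to nearly the same level in all 4 libraries. The 81 genes together stood at 700.2 and 713 CPM (read counts scaled to library size) in the OP50 pair and at 703 and 685 CPM in the MH-1 pair. The groups overlap, with 707 ± 9.20 and 694 ± 12.8 CPM (SD, n = 2), a difference of -1.80% (exact permutation test over libraries, two-sided, p = 0.667; the smallest p that 2 against 2 libraries allow is 0.333). Most of this sum came from the 4 genes of the cyp-31A subfamily, with 61.8% and 56.7% of the family's CPM in the OP50 pair and 63.3% and 57.7% in the MH-1 pair. The remaining 77 genes summed to 267 and 309 CPM and then to 258 and 290 CPM, in the same order, which also overlap. In whole worms, a gene's lower level cannot be told apart from fewer cells of the kind that expresses it.

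**Figure D1:**
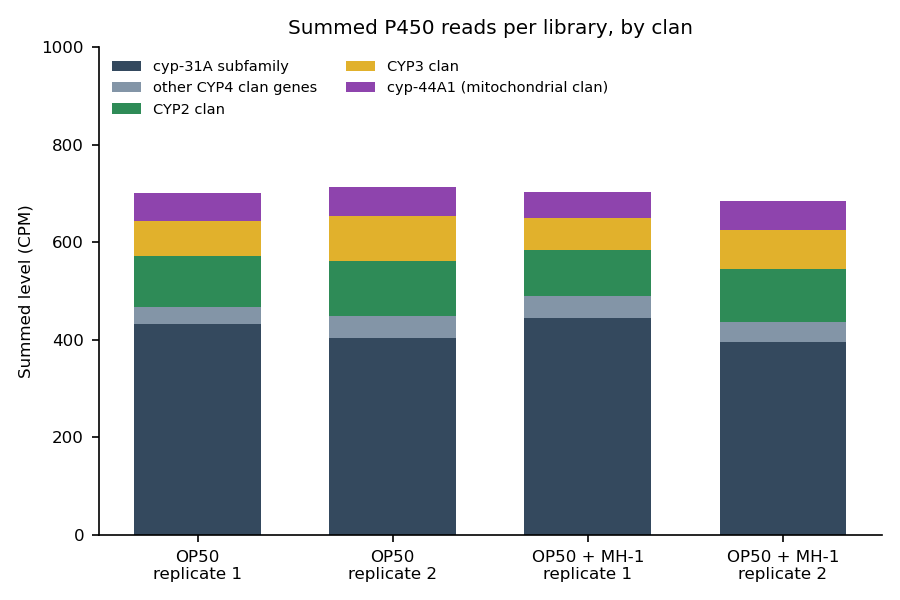
Stacked bars give the summed CPM of P450 genes in each of the 4 libraries, split into the cyp-31A subfamily, the other CYP4 clan genes, the CYP2 clan, the CYP3 clan and cyp-44A1; cyp-23A1, under 1 CPM in every library, is not drawn. The totals lie between 685 and 713 CPM, and cyp-31A makes up more of each bar than all other genes together.

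Of the cyp-31A genes, cyp-31A5, cyp-31A3 and cyp-31A2 were the most abundant members per kb, and their intervals leave room for small differences only. cyp-31A2 and cyp-31A3 are close paralogs that act with emb-8 in making the lipid-rich permeability barrier of the eggshell. Per kb of gene model, cyp-31A5 (chromosome IV, 13401306 to 13403831) stood at 252 and 235 CPM per kb in the OP50 pair and at 263 and 226 CPM per kb in the MH-1 pair. cyp-31A3 (chromosome IV, 4761049 to 4762856) had 51.4 and 45.4, then 51.8 and 44.2 CPM per kb in the same order. cyp-31A2 (chromosome IV, 11403961 to 11406066) had 48.6 and 46.6, then 47.3 and 49.04 CPM per kb. For each of the 3 genes the groups overlap, and cyp-31A2 and cyp-31A3 do not differ from each other in level beyond the spread between libraries. The log2 fold change of cyp-31A2 was 0.02 ± 0.08 (SE), with a 95% interval from -0.17 to 0.20. The intervals reached from -0.27 to 0.24 for cyp-31A3 and from -0.22 to 0.23 for cyp-31A5, so a change of 2-fold in either direction lies outside all of them. The pseudogene cyp-31A1 was listed with 134 and 171 counts in the OP50 pair and with 151 and 177 counts in the MH-1 pair. The sources used here do not say how reads that fit several of these copies were counted. The split among the 4 genes is therefore uncertain, and their sum less so. cyp-31A5 also overlaps a gene on the opposite strand. If strand was ignored in counting, some of its reads, and of that sum, could belong to that gene.

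Genes that work with cyp-31A at the eggshell did not pass either, with 1 exception. The reductase gene emb-8 stood at 192 and 183 CPM in the OP50 pair and at 187 and 179 CPM in the MH-1 pair, with overlapping groups and a log2 fold change of -0.04 ± 0.07 (SE). Of 14 genes of the permeability barrier and eggshell, 1 rose, 0 fell and 13 did not pass, and 12 of the 14 values were negative (median -0.13). The gene that rose was the fatty acid synthase fasn-1, at 97.5 and 75.3 CPM and then 148 and 139 CPM. Its log2 fold change was 0.73 ± 0.12 (adjusted p = 0.0364), and the adjusted p was 0.0903 and 0.0594 without MH-1 replicate 1 and 2. Oocyte and germline markers had negative log2 fold changes in 12 of 12 genes, none of them called, and summed to 11183 and 10732 CPM in the OP50 pair and to 9612 and 9734 CPM in the MH-1 pair. Their part in the level of cyp-31A was not tested.

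After those 3 cyp-31A genes, cyp-44A1, which encodes the worm's mitochondrial-type P450, was the next most abundant. cyp-44A1 (chromosome II, 5503966 to 5506115) stood at 31.9 and 33.4 CPM per kb in the OP50 pair and at 29.9 and 33.6 CPM per kb in the MH-1 pair. The groups overlap, and the 95% interval of the log2 fold change reached from -0.26 to 0.18. It overlaps npp-24 on the same strand in the tables, so reads in the shared stretch could belong to either gene. The other members among the 8 most abundant were cyp-37A1, cyp-25A2, cyp-33A1 and cyp-25A1, with means over the 4 libraries of 11.4, 10.6, 7.46 and 6.90 CPM per kb. cyp-37A1 and cyp-25A2 overlap in their values per library, and so do cyp-33A1 and cyp-25A1, so their order within each pair is not resolved. The cut at 8 is not resolved either, as cyp-34A8 and cyp-43A1 came next with means of 6.89 and 6.83 CPM per kb. cyp-33A1 lay at 11.5 and 12.5 CPM in the OP50 pair and at 13.1 and 14.99 CPM in the MH-1 pair. The groups do not overlap there, but the log2 fold change of 0.23 ± 0.16 (SE) had an adjusted p of 0.588. The log2 fold changes of cyp-37A1, cyp-25A2 and cyp-25A1 were 0.02 ± 0.16, -0.03 ± 0.15 and 0.27 ± 0.21 (SE). The 8 genes together carried between 76.2% and 81.8% of the family's summed CPM per kb.

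**Figure D2:**
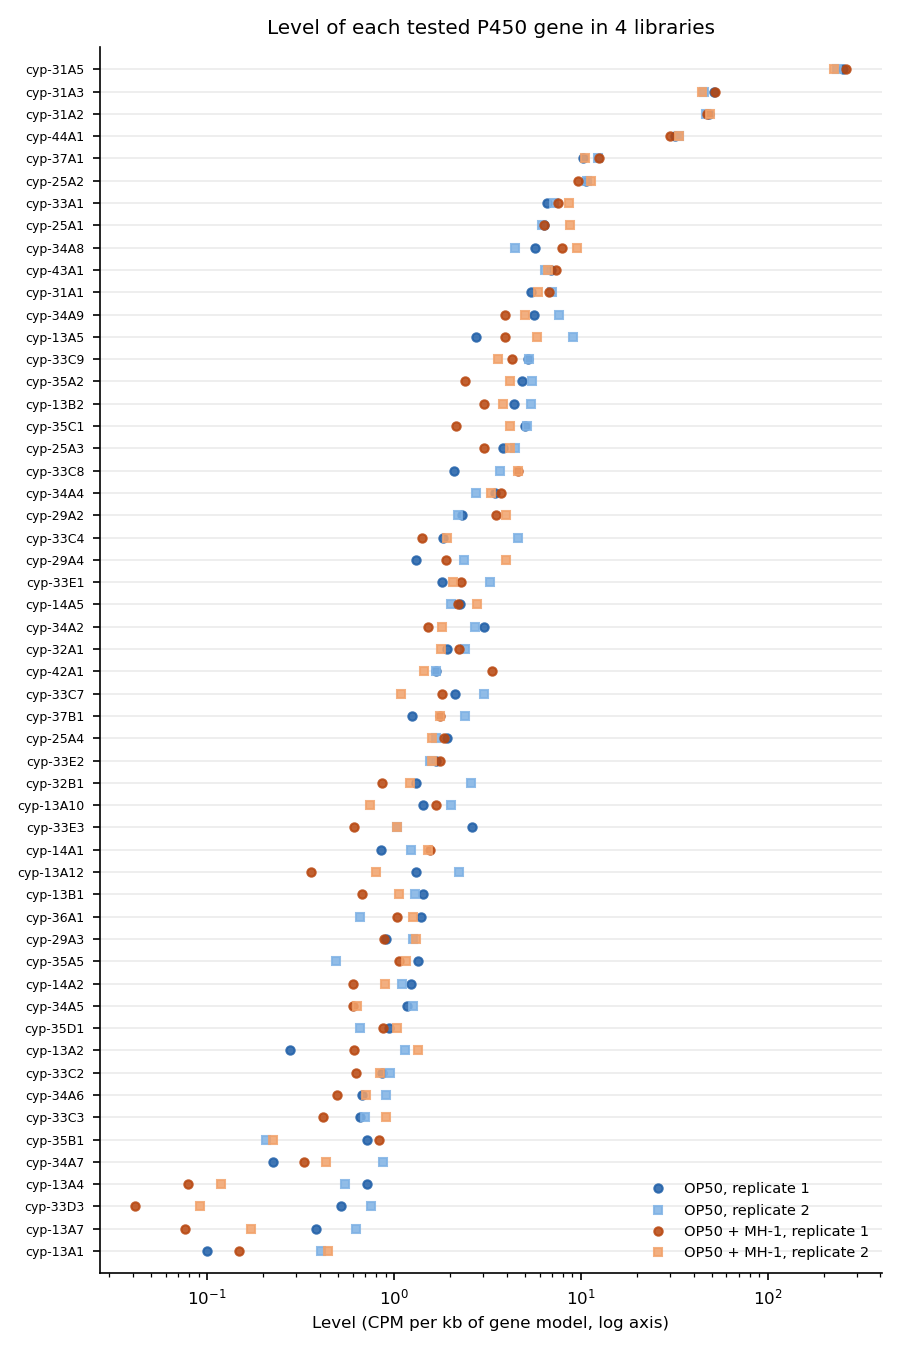
Each row is 1 of the 54 tested P450 genes, ordered by mean level, and each point is 1 library (x axis: CPM per kb of gene model, log scale). The cyp-31A genes other than cyp-31A1, and cyp-44A1, stand at the top with points close together, and the points of 1 gene spread further apart among many of the low genes; 33 of the 54 genes have a mean under 5 CPM in both groups.

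No gene known to be induced by foreign compounds passed, and 3 of the cyp-35A genes were too low to test. The cyp-35A genes and cyp-35C1 are widely used readouts of exposure to drugs and pollutants, and knockdown of cyp-35A genes is known to lower fat stores. cyp-35A1 was listed with 0, 0, 0 and 1 counts, with the OP50 pair first. cyp-35A3 had 1 and 3 counts and then 3 and 15, and cyp-35A4 had 1 and 6 and then 3 and 2, so none of these 3 genes was tested. cyp-35A2 (chromosome V, 7362319 to 7364204) stood at 7.74 and 8.77 CPM in the OP50 pair and at 3.84 and 6.69 CPM in the MH-1 pair. cyp-35C1 (chromosome V, 13896663 to 13898488) had 7.68 and 7.92 CPM and then 3.28 and 6.41 CPM. In both genes the groups do not overlap and MH-1 replicate 1 is the lowest library. The log2 fold changes were -0.64 ± 0.30 (adjusted p = 0.403) for cyp-35A2 and -0.67 ± 0.33 (adjusted p = 0.425) for cyp-35C1. Without that replicate they were -0.30 and -0.28. cyp-35A5 stood at 2.19 and 0.792 CPM and then 1.73 and 1.89 CPM, with overlapping groups and a log2 fold change of 0.28 ± 0.52 (SE). All 5 cyp-35A genes together summed to 10.04 and 10.1 CPM, and then to 5.95 and 9.41 CPM. Intestine markers also had lower sums in the MH-1 pair, as given at the end, and their part in these values was not tested.

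cyp-13A7, a gene induced by the drug rifampicin in reporter worms, had 11 and 18 counts in the OP50 pair and 2 and 6 counts in the MH-1 pair. That is 0.617 and 1.02 CPM against 0.124 and 0.277 CPM, with no overlap. Its log2 fold change was -1.94 ± 0.70 (adjusted p = 0.284), and the ratio of summed counts, OP50 over MH-1 and scaled for depth, was 3.86 with a 95% counting interval from 1.72 to 9.78 (exact Clopper-Pearson, counting error only). cyp-13A4, which lies in the same run of genes, had 20 and 15 counts and then 2 and 4 counts, a scaled ratio of 6.21 (2.59 to 18.1) and a log2 fold change of -2.59 ± 0.65 (adjusted p = 0.127). Neither gene passed. cyp-33D3 (chromosome V, 18832327 to 18837214) had 14 and 20 counts and then 1 and 3 counts, a scaled ratio of 9.06 (3.23 to 35.1) and a log2 fold change of -3.11 ± 0.73. Its adjusted p was 0.105, and 0.0246 with no filter on low counts. With 1 library left out the log2 fold change ran from -2.65 to -1.54 for cyp-13A7 and from -2.92 to -2.37 for cyp-13A4. For cyp-33D3 it ran from -3.80 to -2.73. The 3 genes cyp-13A4, cyp-13A7 and cyp-33D3 reached the count minimum in both OP50 libraries and in neither MH-1 library, so that they could be tested only because one group was high. cyp-33D3 overlaps another gene on its own strand in the tables.

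On the higher side the lowest p-values were those of cyp-34A8 and cyp-29A2. They were singled out after their values were seen, as were cyp-34A2 and cyp-34A5. cyp-34A8 (chromosome V, 3964779 to 3967880) had 9.36 and 7.36 CPM in the OP50 pair and 13.2 and 15.8 CPM in the MH-1 pair. The groups do not overlap, the log2 fold change being 0.79 ± 0.20 (SE; adjusted p = 0.123). That p was 0.0429 without OP50 replicate 1 and 0.00310 with no filter on low counts, and the gene did not pass under the other settings tried. cyp-29A2 had 3.98 and 3.79 CPM and then 6.07 and 6.83 CPM, also without overlap, at 0.73 ± 0.24 (adjusted p = 0.225). On the lower side, cyp-34A2 had 4.93 and 4.42 CPM and then 2.48 and 2.95 CPM, at -0.78 ± 0.28 (adjusted p = 0.275). cyp-34A5 had 1.79 and 1.92 CPM and then 0.929 and 0.969 CPM, at -0.96 ± 0.40 (adjusted p = 0.353). Within the cyp-34A subfamily, then, single genes had values on both sides, and the sum of its 10 genes was 32.97 and 34.6 CPM in the OP50 pair and 31.4 and 36.3 CPM in the MH-1 pair. cyp-34A8 overlaps a gene on the opposite strand. Markers of embryos and of the molting epidermis had higher sums in the MH-1 pair, as given at the end, and their part in these values was not tested.

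**Figure D3:**
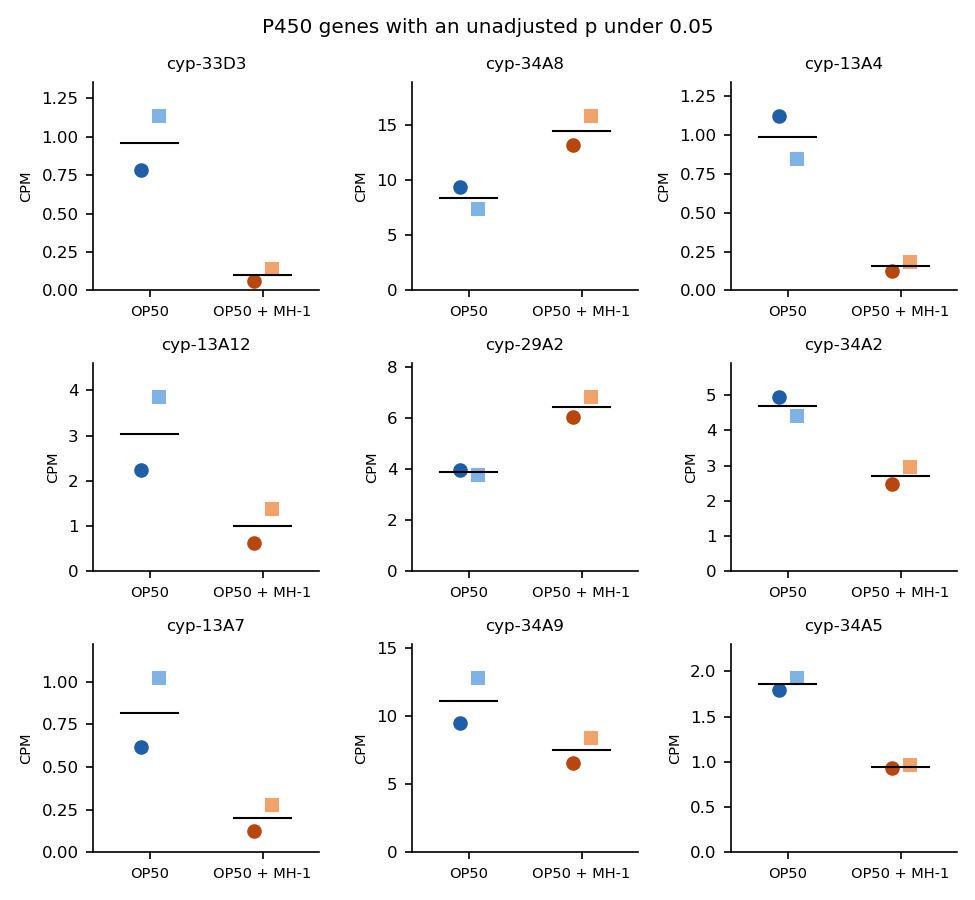
Points give the CPM of each library and black lines the group means for the 9 P450 genes with an unadjusted p under 0.05 (circles replicate 1, squares replicate 2; every y axis starts at 0). The groups do not overlap in any of the 9 genes, which the choice by p favours, and of the 9 only cyp-34A8, cyp-34A9 and cyp-29A2 exceed 5 CPM in a library.

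P450 genes tied to fatty acid signals gave no call either. cyp-33E2 makes eicosanoids, oxidized polyunsaturated fatty acids that influence pharyngeal pumping, and cyp-29A3 contributes to the same products. cyp-33E2 stood at 2.75 and 2.55 CPM in the OP50 pair and at 2.91 and 2.63 CPM in the MH-1 pair, with overlapping groups and a log2 fold change of 0.06 ± 0.30 (SE). cyp-29A3 had 1.46 and 2.04 CPM and then 1.42 and 2.12 CPM, so that replicates of one group differ more than the group means. cyp-13A12 is known for its role in the movement response when oxygen returns after anoxia, which depends on polyunsaturated fatty acids. cyp-13A12 (chromosome III, 13024547 to 13028012) had 2.24 and 3.85 CPM and then 0.619 and 1.38 CPM, without overlap, at -1.57 ± 0.50 (adjusted p = 0.214). Without MH-1 replicate 2 the log2 fold change was -2.29, and without MH-1 replicate 1 it was -1.13. With no filter on low counts its adjusted p was 0.00632, and it did not pass under any other setting tried. cyp-33E3, a short gene model of 711 bases next to cyp-33E2, had 1.85 and 0.736 CPM and then 0.434 and 0.738 CPM, at -1.11 ± 0.62 (adjusted p = 0.496). The groups overlap, and without OP50 replicate 1, its highest library, the log2 fold change was -0.31.

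Among 8 genes for polyunsaturated fatty acid supply and epoxide hydrolysis, 1 fell and 0 rose, and 2 were called lower with DESeq2, with the replicate block or with no filter on low counts. The gene that fell was the delta-6 desaturase fat-3, at 141.8 and 114.2 CPM in the OP50 pair and 79.3 and 71.9 CPM in the MH-1 pair. Its log2 fold change was -0.76 ± 0.12 (adjusted p = 0.0281), and the adjusted p was 0.0501 and 0.0697 without MH-1 replicate 1 and 2. The soluble epoxide hydrolase genes ceeh-1 and ceeh-2, whose products break down P450 epoxides, had log2 fold changes of 0.25 ± 0.16 and -0.25 ± 0.25 (SE).

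Members downstream of stress and insulin signals did not pass, and cyp-35B1 and cyp-36A1 varied between replicates. cyp-34A9 and cyp-35B1, also known as dod genes, lie downstream of the FOXO factor DAF-16. cyp-34A9 (chromosome V, 3968134 to 3970514) stood at 9.48 and 12.8 CPM in the OP50 pair and at 6.57 and 8.44 CPM in the MH-1 pair, without overlap. Its log2 fold change was -0.56 ± 0.23, with adjusted p = 0.346. cyp-35B1 had 21 and 6 counts and then 22 and 8 counts. In both groups replicate 1 was high and replicate 2 low, and the difference between the groups cannot be resolved (95% interval from -1.80 to 2.09). cyp-36A1 acts downstream of the oxygen-sensing EGL-9 and HIF-1 pathway and influences behaviour through the nuclear receptor NHR-46. Its levels were 2.41 and 1.13 CPM and then 1.80 and 2.17 CPM, so the groups overlap. Among 17 regulators with ties to P450 genes, which include daf-16, hif-1, egl-9, nhr-46, nhr-8, skn-1 and mdt-15, 0 passed, with a median log2 fold change of -0.01. nhr-46 had 33.8 ± 2.13 CPM in the OP50 pair and 42.2 ± 4.02 CPM in the MH-1 pair (SD, n = 2), without overlap and with adjusted p = 0.261. The group means of hif-1 were 195 and 196 CPM.

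The partners of P450 enzymes and the pathways beside them mostly did not pass. The cytochrome b5 genes cytb-5.1 and cytb-5.2 had log2 fold changes of -0.09 ± 0.11 and 0.25 ± 0.11 (SE). In the dafachronic acid pathway 10 of 13 genes were tested and 0 passed. Its P450 gene daf-9 had 0.336 and 0.906 CPM and then 0.681 and 1.29 CPM, with overlapping groups and an adjusted p of 0.703. Of 5 flavin monooxygenases, the other microsomal oxidases of foreign compounds, 0 passed. With DESeq2 or with total counts as the only scaling 1 of them was called lower, and 2 were with the replicate block, with no filter on low counts or without OP50 replicate 1. fmo-2 had 5.89 and 17.9 CPM in the OP50 pair and 2.23 and 2.12 CPM in the MH-1 pair, without overlap (adjusted p = 0.0745). Of 21 tested efflux pumps of the pgp and mrp classes, 0 passed. Of 28 tested short-chain dehydrogenases of the dhs class, 1 fell and 0 rose, namely dhs-18 at -0.95 ± 0.15 (adjusted p = 0.0328; 0.0565 with limma-voom, and 0.104 and 0.0757 without MH-1 replicate 1 and 2). In that class 1 gene was called higher with DESeq2, with total counts as the only scaling or without OP50 replicate 1. The replicate block gave 2 higher and 2 lower, and no filter on low counts gave 3 higher and 4 lower.

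Neighbouring P450 genes did not share a direction in every run. In the run of 13 genes on chromosome V, 8 were tested, 4 with positive and 4 with negative log2 fold changes. Its members cyp-34A8 and cyp-34A9 are adjacent on the same strand and had values on opposite sides (0.79 and -0.56). The summed level of this run was 31.6 and 31.6 CPM in the OP50 pair and 31.9 and 35.7 CPM in the MH-1 pair. In the run of 9 cyp-13A genes (chromosome II, 9779182 to 9807532), cyp-13A4 and cyp-13A7 were lower in both MH-1 libraries, while cyp-13A1, cyp-13A2 and cyp-13A5 overlapped between groups. cyp-13A4 and cyp-13A7 could be tested only because the OP50 pair was high, which fixed their sign. Of the untested genes of this run, at 25 counts or fewer, cyp-13A3 and cyp-13A6 were lower in both MH-1 libraries, and cyp-13A8 and cyp-13A9 overlapped. In a run of 9 genes of cyp-33C and cyp-32B (chromosome V, 2179586 to 2252553) all 5 tested genes had negative values, from -0.95 for cyp-33C4 to -0.01 for cyp-33C3. cyp-33C4 stood at 2.75 and 6.91 CPM and then 2.11 and 2.86 CPM, with overlapping groups. Without OP50 replicate 1, the lower of its group, its log2 fold change was -1.46 with an adjusted p of 0.0426, where all 4 libraries gave -0.95 and 0.424.

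**Figure D4:**
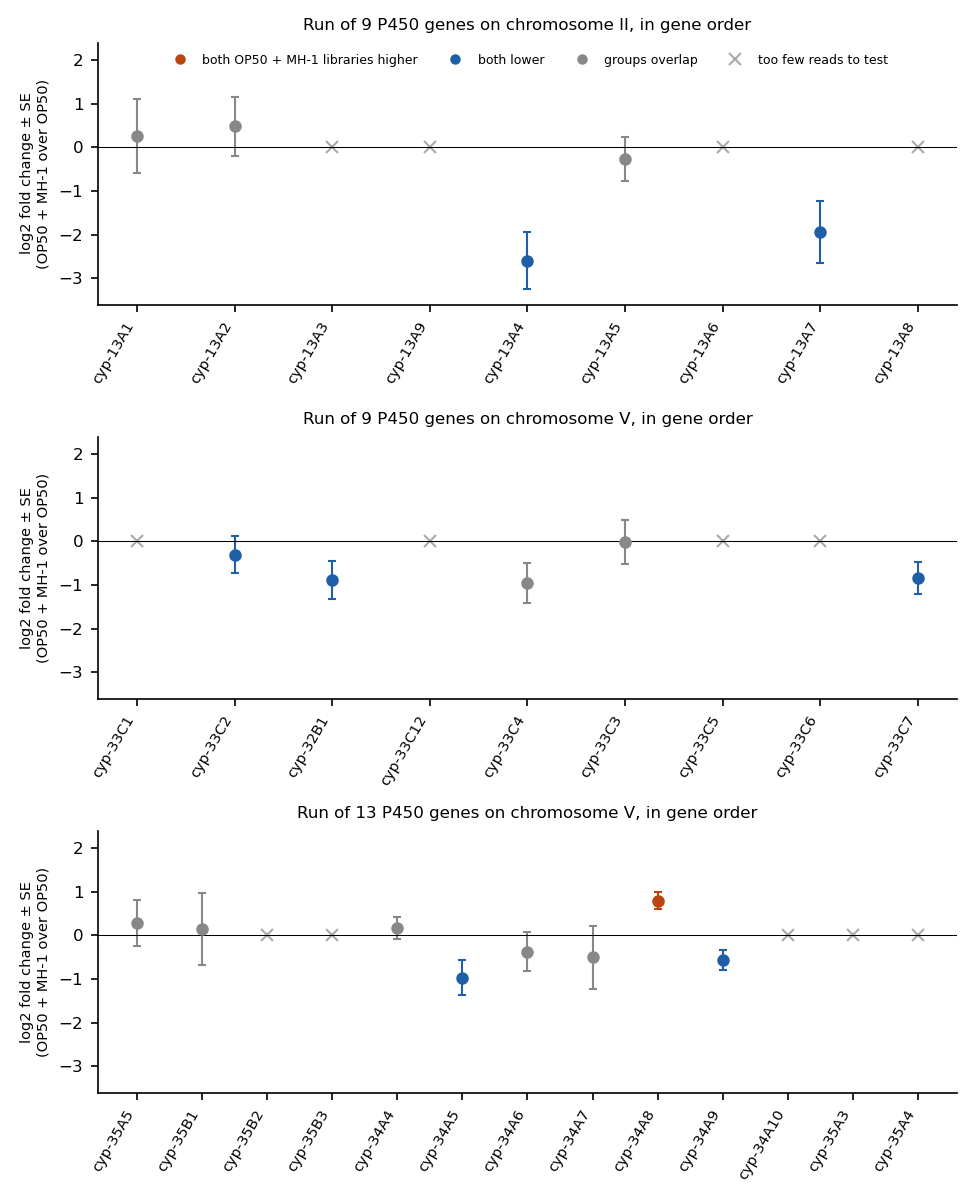
Log2 fold changes (OP50 + MH-1 over OP50, with SE) are drawn in gene order for the 3 runs of at least 9 neighbouring P450 genes; crosses mark genes with too few reads to test. In the run of 13 genes cyp-34A8 stands above 0 between neighbours below 0, and in the run on chromosome II cyp-13A4 and cyp-13A7 stand below -1.

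The median fold between replicates was close to that between the group means. A mean of 2 libraries varies less than a single library, so these medians do not weigh food against replicate. Over the 54 tested genes the median fold, as higher over lower, was 1.27 between the OP50 libraries, 1.28 between the MH-1 libraries and 1.28 between the group means. The OP50 pair differed at least 2-fold in 9 genes and the MH-1 pair in 10. The spread between replicates was wide in the cyp-13A subfamily, whose 12 genes summed to 13.2 and 30.8 CPM in the OP50 pair and to 12.7 and 17.3 CPM in the MH-1 pair. cyp-13A5 alone stood at 4.60 and 15.1 CPM and then 6.503 and 9.73 CPM, and cyp-13A2 at 0.561 and 2.32 CPM and then 1.24 and 2.72 CPM. In all 3 cases replicate 2 is above replicate 1 in both groups. cyp-42A1 differed within one group only, with 3.03 and 3.06 CPM in the OP50 pair but 6.07 and 2.63 CPM in the MH-1 pair. For 18 of the 54 members (33.3%, against 65.3% of all tested genes) the 95% interval lay inside a 2-fold change in both directions. For the others, the interval reached past a 2-fold change in at least 1 direction. The intervals of cyp-13A4 (-4.14 to -1.05) and cyp-33D3 (-4.85 to -1.38) lay wholly beyond a 2-fold decrease. Both genes could be tested only because the OP50 pair was high, which fixed their sign, so no decrease is read from these intervals. Neither gene passed the adjusted threshold.

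**Figure D5:**
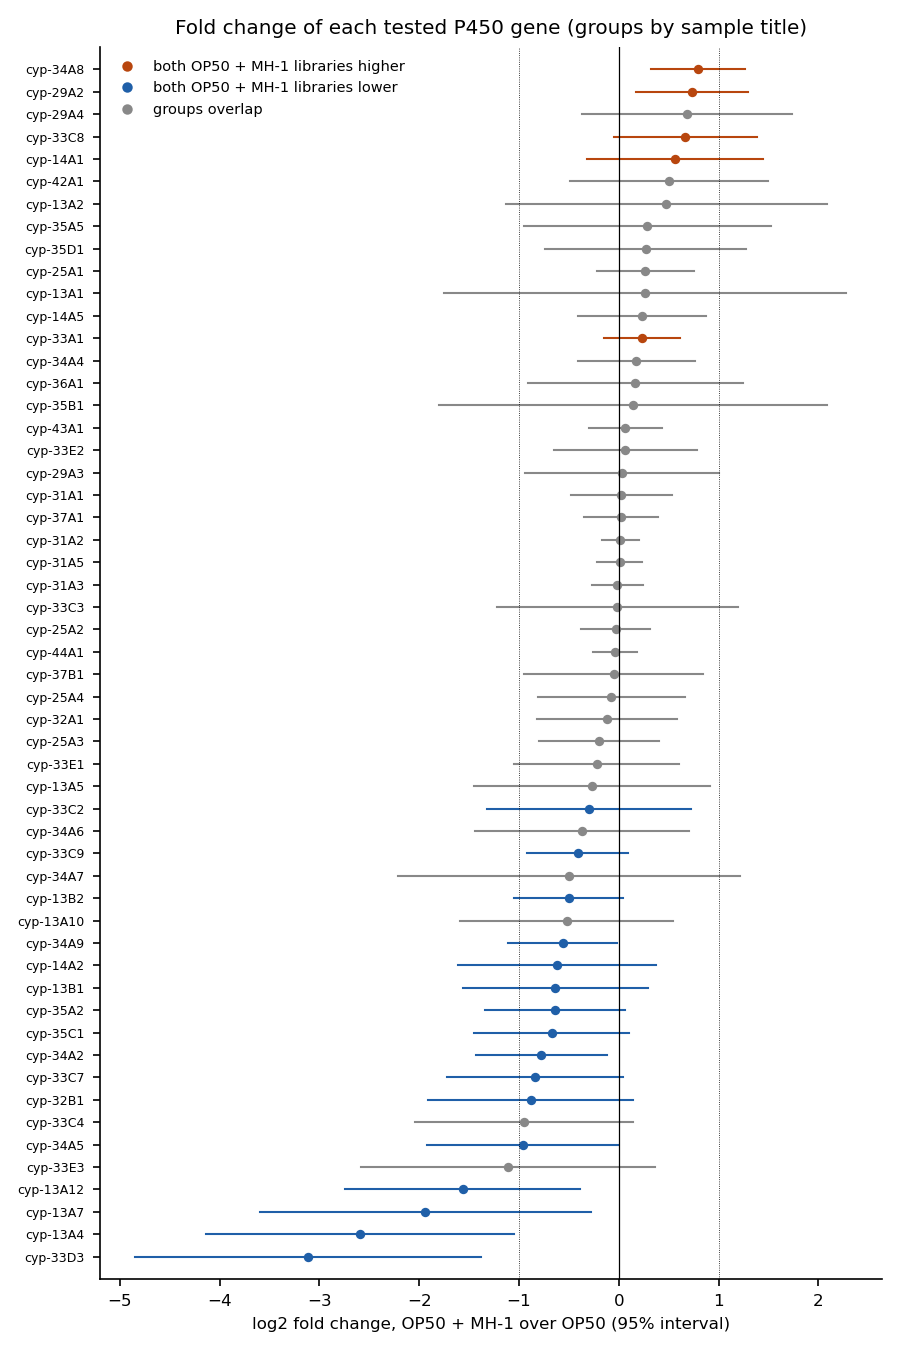
Points are log2 fold changes of the 54 tested P450 genes (OP50 + MH-1 over OP50, groups by sample title) and lines their 95% intervals; dotted lines mark a 2-fold change, and colours show whether the groups overlap. The intervals are narrow for cyp-31A2, cyp-31A3, cyp-31A5 and cyp-44A1 and wide for genes such as cyp-13A1 and cyp-35B1, and no gene passed the adjusted threshold.

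The remaining tested members are given by subfamily. In cyp-29A, cyp-29A4 stood at 2.02 and 3.62 CPM and then 2.91 and 6.09 CPM, and all 3 tested genes of the subfamily had positive values between 0.03 and 0.73. The sum of cyp-29A was 7.46 and 9.45 CPM in the OP50 pair and 10.5 and 15.04 CPM in the MH-1 pair, without overlap. cyp-13B1 and cyp-13B2 both had lower values in the MH-1 pair, at log2 fold changes of -0.63 ± 0.39 and -0.50 ± 0.23 (SE). In cyp-33C, 5 of 6 tested genes had negative values and cyp-33C8 a positive one, at 3.48 and 6.11 CPM and then 7.62 and 7.61 CPM. Of the negative ones, cyp-33C2, cyp-33C7 and cyp-33C9 did not overlap between groups, at log2 fold changes of -0.30, -0.84 and -0.41, and neither did cyp-32B1, at -0.88 ± 0.44 (SE; adjusted p = 0.431). The cyp-34A genes not yet given, cyp-34A4, cyp-34A6 and cyp-34A7, overlapped between groups, at 0.18, -0.37 and -0.50. cyp-14A1, cyp-14A2 and cyp-14A5 had log2 fold changes of 0.56, -0.62 and 0.23. The 4 tested cyp-25A genes, cyp-25A3 and cyp-25A4 among them, all overlapped between groups, with log2 fold changes between -0.20 and 0.27. cyp-43A1, cyp-32A1 and cyp-37B1 also overlapped, at 0.07, -0.12 and -0.05. cyp-13A10, cyp-33E1 and cyp-35D1 overlapped as well, at -0.52, -0.22 and 0.27.

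The 27 members too low to test carried little of the family's signal. Together they summed to 61 and 119 counts in the OP50 pair and to 60 and 87 counts in the MH-1 pair, and the highest single count was 25, for cyp-13A8. cyp-35B3 and the pseudogene cyp-35D2 had 0 counts in all 4 libraries, where 3 counts, the limit that a count of 0 allows, correspond to between 0.138 and 0.186 CPM. After scaling to library size, 4 of the 27 lay higher and 4 lower in both MH-1 libraries. The share over all untested genes is not given here. Examples were picked after their values were seen. cyp-34A1 had 1 and 2 counts and then 7 and 15, and cyp-23A1 had 3 and 4 and then 10 and 8. cyp-33C11 had 6 and 5 and then 1 and 0. Values this low are given as counts only.

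The libraries held between 15771890 and 21572225 counts. In edgeR's quasi-likelihood test, only the markers of embryos and of epidermis and molting had called genes. Of 13 tested embryo markers 4 rose and 0 fell, where 230 of all 12640 tested genes rose and 42 fell. Log2 fold changes were positive in 10 of the 13 and negative in 3. All 15 embryo markers summed to 240 and 214 CPM in the OP50 pair and 398 and 366 CPM in the MH-1 pair. With robust dispersion 2 of them rose. Of 11 tested markers of epidermis and molting 7 rose and 0 fell (1 with robust dispersion, 4 without MH-1 replicate 1), from sums of 128 and 79.0 CPM to 422 and 303 CPM, with the adult-cuticle gene bli-1 at 0 counts throughout. Of those 11 markers, 9 had positive and 2 negative log2 fold changes. Intestine markers, of the tissue in which many P450 genes are known to be expressed, summed to 3012 and 3188 CPM and then 2160 and 2457 CPM, with 0 of 10 called by edgeR's quasi-likelihood test. Their log2 fold changes were positive in 3 genes and negative in 7, with a median of -0.12. Of the 10, 1 was called lower with DESeq2 or without OP50 replicate 1, and 2 were with the replicate block or with no filter on low counts. Neuron markers summed to 277 and 276 CPM and then 286 and 264 CPM, with 0 of 8 called, and sperm markers stayed between 1.98 and 3.98 CPM. The yolk genes vit-1 to vit-6, which adult hermaphrodites express, summed to 61579 and 60802 CPM in the OP50 pair. In the MH-1 pair they summed to 41691 and 70217 CPM. All 6 log2 fold changes were negative (median -0.11), with 0 called.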

How the data were processed

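RNA of 4 libraries was analysed, 2 per group, grouped by sample title. Poly(A) RNA went through a strand-keeping library kit, per the labels' protocols. The deposited values are raw read counts per gene, per the file headers and the values. The submitters' processing notes name build ce11 (WBcel235) and, in no stated order, featureCounts 2.0.1, STAR 2.7.10a, cutadapt 3.7, Trimmomatic 0.39 and Trim Galore 0.6.7. Strand setting and treatment of multi-mapping reads: not given in the sources used here.

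Testing used edgeR 4.0.16 in R 4.3.3, with genes kept by filterByExpr (a count of 10, a total of 15), TMM scaling and a quasi-likelihood fit on group alone. P-values were adjusted by Benjamini-Hochberg over all 12640 genes tested, and an adjusted p under 0.05 was called. Standard errors are the log2 fold change divided by the square root of F, and 95% intervals use the moderated degrees of freedom of that fit. CPM divide counts by the TMM-scaled library size, and CPM per kb divide these by the deposited gene length wherever levels of different genes are compared. Clans were assigned from general knowledge. All 81 identifiers are in Ensembl release 115, but 11 have identical coordinates there, so printed positions may differ from current ones. Counts of replicates differed beyond sampling noise, with chi-square values of 10.1 and 24.8 for each degree of freedom.

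Members, gene lists and named genes were chosen with earlier results of these data known. Named were members past the threshold, those with an absolute log2 fold change of at least 1, the 8 most abundant per kb and members with a known role. From the other lists, emb-8, daf-9 and up to 3 called genes were to be named, and further genes were named after their values were seen. The steps were tested on simulated data. Alternatives used DESeq2 1.42.0, limma-voom (limma 3.58.1), other scalings, filters, dispersion settings and thresholds, a replicate block, and each library left out. Figures were drawn with matplotlib 3.10.9.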

Additional observations from a re-analysis of the deposited data

How the results depend on the processing

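No P450 gene was called under either other scaling, DESeq2, limma-voom, robust=TRUE, legacy=FALSE, a minimum of 1 CPM in 2 libraries, the replicate block, or an adjusted p of 0.1 or 0.01. With no filter on low counts 3 were called (cyp-34A8 higher, cyp-13A12 and cyp-33D3 lower), where all genes called numbered 1112 in place of 272. That setting also called 1 dafachronic acid gene and 2 efflux pumps higher, and 2 oocyte markers and 1 eggshell gene lower, and the replicate block called 1 eggshell gene lower as well. Leaving out 1 library gave between 0 and 2 called P450 genes. The 2 calls, cyp-34A8 and cyp-33C4, came without OP50 replicate 1. Over all genes the count was 455 with DESeq2, 162 with limma-voom, 559 with the replicate block, 440 at an adjusted p of 0.1 and 28 at 0.01, and between 119 and 488 with 1 library left out. Such a fit leaves 1 library alone in its group and assumes that it varies like the other group. The causes were not tested.

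The log2 ratio of the summed P450 level was -0.03, 0.017 with total counts as the only scaling, and between -0.04 and -0.01 with 1 library left out. Total counts also turned the sign of the log2 fold change of cyp-44A1 (0.0014), cyp-25A2 (0.010), cyp-31A3 (0.032) and emb-8 (0.0074), RLE size factors that of cyp-31A5 (-0.0028), DESeq2 that of cyp-31A5 (-0.0027) and limma-voom that of cyp-37B1 (0.021). With 1 library left out the log2 fold change ran from -0.28 to 0.81 for cyp-36A1, -0.13 to 0.044 for cyp-44A1, -0.10 to 0.16 for cyp-37A1, -0.16 to 0.089 for cyp-25A2, -0.13 to 0.10 for cyp-31A3, -0.0041 to 0.14 for cyp-33E2, -0.017 to 0.047 for cyp-31A2 and -0.10 to 0.11 for cyp-31A5. It ran from -0.29 to 0.29 for cyp-29A3, -0.27 to 1.19 for cyp-35A5, -1.02 to 1.29 for cyp-35B1, -0.45 to 0.48 for cyp-37B1 and -0.20 to 0.99 for cyp-42A1. None of these members was called in any of those fits.

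The replicates share only a number: replicate 1 minus replicate 2 correlated at 0.21 between the groups over genes, with 2 pairs, and 0 P450 genes were called with the replicate block. Of the tested members, 33 lie under 5 CPM in both groups.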
